A study of Arabidopsis thaliana with 2 samples.

Results

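GL3 (GLABRA 3, AT5G41315) and EGL3 (ENHANCER OF GLABRA 3, AT1G63650) are a pair of related basic helix-loop-helix (bHLH) transcription factor genes of Arabidopsis thaliana. Each was named at 1 peak in a peak list for the HA-tagged NAC transcription factor ATAF1. The pair was chosen because the overlap column of that list, searched by locus, symbol or synonym on the gene's own chromosome, names them. They account for 2 of the 439 peaks. The study used an anti-HA antibody to precipitate chromatin from rosettes of 35S:ATAF1-HA plants, in the Col-0 ecotype, and of wild-type Col-0 plants, which carry no tag. The 35S promoter drives the tagged protein in most cell types, so its sites are those of an overexpressed factor in whole rosettes. Plants of both genotypes had grown on soil for 5 weeks with 8 h of light per day at 21 °C. Each genotype had 1 library, made from 10 ng of precipitated DNA, so there were no replicates and nothing was tested between genotypes. How deeply either library was sequenced is unknown, and the list does not say from which library its reads per peak come.

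GL3 and EGL3 act partly redundantly in the epidermis. Each protein joins a MYB protein such as GL1 or WER and the WD40 protein TTG1 in an activator complex, known as the MBW complex, which starts leaf trichomes through targets such as GL2 and TTG2 and sets the hairless cell files of the root. Small R3-MYB proteins such as TRY and CPC compete with the MYB partner for the bHLH protein and so hold back the same fate. With PAP1-type MYB partners the same bHLH proteins switch on late genes of anthocyanin synthesis.

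The GL3 peak was a short peak of ordinary size. It lay on chromosome 5 from 16532524 to 16532563, in TAIR9 coordinates as the list gives them, and its listed length was 39 bp. It held 224 reads, of which 101 were forward and 123 reverse. Forward and reverse here mean the strands of the chromosome, not of the gene. The exact 95% Poisson interval of the total was 196 to 255 reads, which covers counting error only. The authors' false discovery rate (FDR) for this peak was 0.196%, and their p-value was listed as 0.

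The EGL3 peak was one of the longest of the list. It lay on chromosome 1 from 23601784 to 23602256, with a listed length of 472 bp. It held 301 reads (95% Poisson interval 268 to 337), 177 of them forward and 124 reverse. Its FDR of 0.194% was close to that of the GL3 peak, but its p-value was 0.599. The sources used here do not say what the deposited p-value tests.

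Set side by side, the 2 peaks had nearly the same number of reverse reads, 123 at GL3 and 124 at EGL3. They differed in forward reads, 101 at GL3 and 177 at EGL3. Forward reads were thus 45.1% of the GL3 peak (Wilson 95% interval 38.7 to 51.6) and 58.8% of the EGL3 peak (53.2 to 64.2). The difference, GL3 minus EGL3, was -13.7 percentage points, with a Newcombe 95% interval of -22.1 to -5.08. Over all 439 peaks the forward share had a median of 48.7%, with quartiles at 40.1% and 56.5%. It was lower than at GL3 in 168 peaks and higher than at EGL3 in 81, so both shares were common in the list. In total reads the ratio of GL3 to EGL3 was 0.744 (exact conditional 95% interval 0.623 to 0.888). These intervals treat reads as independent molecules and do not speak for variation between plants. No test was made on them, because both peaks were picked from the list that holds these values.

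**Figure D1:**
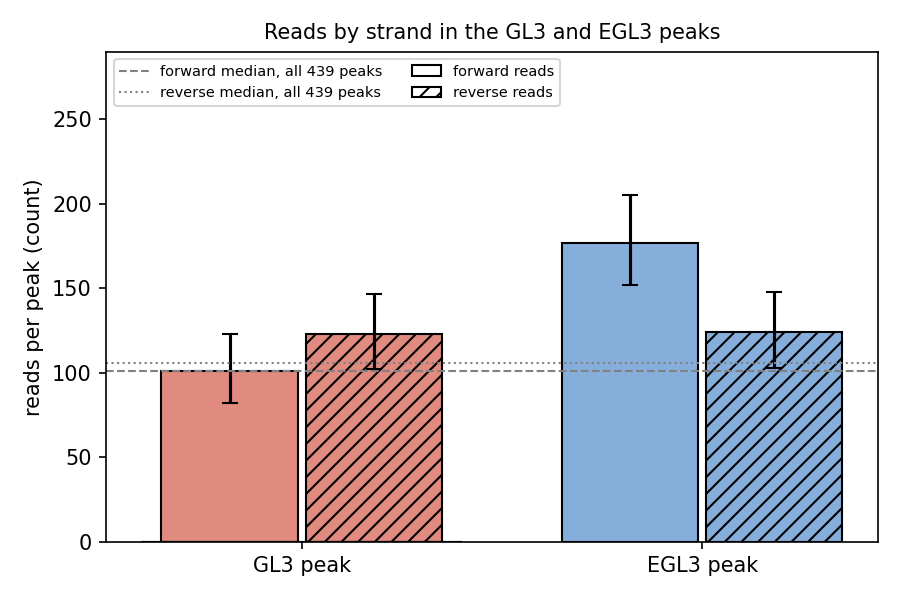
Reads per peak (count) on the forward (plain bars) and reverse (hatched bars) strand of the chromosome for the GL3 and EGL3 peaks, with exact 95% Poisson intervals as error bars and the medians of all 439 peaks as lines. Reverse reads were 123 and 124, while forward reads were 101 at GL3, equal to the median, and 177 at EGL3.

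Against the whole list, the GL3 peak stood close to the middle and the EGL3 peak in the upper part for reads. The GL3 peak held more reads than 235 of the 439 peaks (53.5%), and the EGL3 peak more than 345 (78.6%). All 439 peaks together had a median of 215 reads, with quartiles at 141.5 and 281. The 101 forward reads of the GL3 peak equalled the median of the list, while 58 peaks had more forward reads than the 177 of the EGL3 peak. In reverse reads the 2 peaks were neighbours, with 173 peaks above GL3 and 171 above EGL3. The deposited normalized difference was read as strand imbalance, the absolute difference of the strands over their sum. It was 0.0982 at GL3 and 0.176 at EGL3, against a list median of 0.165.

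The pair also differed in length. The 39 bp of the GL3 peak lay beside the list median of 40 bp, whereas 3 peaks were longer than the 472 bp of the EGL3 peak, which was 12.1 times as long as the GL3 peak. None of the 3 longer peaks overlapped a protein-coding gene. Among the 291 peaks on protein-coding genes, 289 were shorter than the EGL3 peak and none was longer. The remaining one, on the SUMO ligase gene SIZ1 (AT5G60410), also measured 472 bp but carried 769 reads. Against the gene lengths of the RefSeq table (assembly TAIR10.1), 4198 bp for GL3 and 3752 bp for EGL3, the GL3 peak equalled 0.929% of its gene's length and the EGL3 peak 12.6%.

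The EGL3 peak had few reads for its listed length against the whole list, and less markedly so against the long peaks. Reads per listed bp are not a read density, since the 3 peaks listed at 0 bp held 204 to 343 reads. Taken as reads over listed length plus 1 bp, the GL3 peak had 5.60 reads per bp and the EGL3 peak 0.636, against a list median of 5.15. The 20 peaks of 150 bp or more, EGL3 included, had a much lower median of 0.861. Of these, 7 held fewer reads in total than the EGL3 peak. Only 3 of the 439 peaks, all among these 20, had fewer reads per bp than the EGL3 peak. All 3 lay on protein-coding genes: AT2G15880 (136 reads over 333 bp), NRPC1 (AT5G60040, encoding the largest subunit of RNA polymerase III, with 116 reads over 396 bp) and AT2G07768 (99 reads over 273 bp). These genes and SIZ1 were picked after their values were seen.

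**Figure D2:**
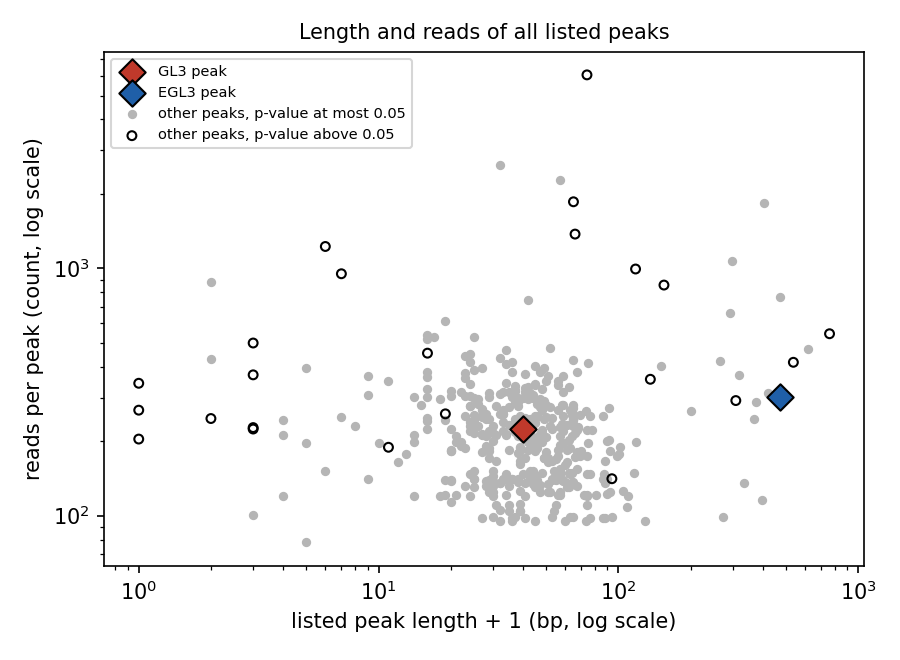
Reads per peak (count, log scale) against listed length plus 1 bp (log scale) for the GL3 peak, the EGL3 peak and the other peaks, with open circles for those with a p-value above 0.05. The GL3 peak, 39 bp and 224 reads, sits within the main cloud, and the EGL3 peak, 472 bp and 301 reads, sits to its right among the longest peaks.

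The EGL3 peak was one of 24 peaks with a p-value above 0.05, which were 5.47% of the list, and the GL3 peak was not. A p-value of exactly 0, as at GL3, was listed for 373 peaks. Of the 24, 10 overlapped a protein-coding gene, against 291 of all 439 peaks. In length, 8 of the 24 were shorter than 3 bp and 5 were 150 bp or longer. Their median length was 16.5 bp, against 40 bp for the peaks with a p-value of 0. Peaks of 150 bp or more numbered 20, or 4.56% of the list, and 5 of these 20 had a p-value above 0.05, as did 19 of the 419 shorter peaks. The only long peaks that both had such a p-value and lay on a protein-coding gene were those on EGL3 and on NTL8 (AT2G27300), which encodes a membrane-bound NAC factor. The NTL8 peak, picked after its values were seen, had 292 reads over 308 bp, 114 of them forward and 178 reverse, and a p-value of 1. Forward reads thus exceeded reverse reads at EGL3 and fell short of them at NTL8.

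The FDR of the GL3 peak was shared with some of the 5 peaks nearest to it in read total, and that of the EGL3 peak with none of its own 5. Of the 5 peaks nearest to GL3 in total reads, with 224 or 225 reads, 3 had the same FDR of 0.196%. These lay on AT2G43440 (52 bp), the dynamin-like gene DL1B (AT3G61760, 19 bp) and AT4G01090 (40 bp). The other 2 named no gene and had FDRs of 1.24% and 1.59%, the first with a p-value of 1 and a length of 2 bp.

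Of the 5 peaks nearest to EGL3, with 299 to 301 reads, none had its FDR. The peaks on AT2G14070, the methionine synthase gene MS2 (AT3G03780) and the pseudogene AT5G31087, each with 299 reads, had a lower FDR of 0.0158%. The peaks on AT3G28820 and on SUF4 (AT1G30970), a gene of the flowering-time pathway of FRIGIDA, each had 301 reads and higher FDRs, 0.647% and 1.03%. Peaks with fewer reads and yet a lower FDR numbered 17 of 235 for GL3 and 79 of 345 for EGL3. All 5 peaks nearest to EGL3 were between 15 and 43 bp long and had a p-value of 0. The EGL3 peak was therefore unlike its neighbours in read total in length and p-value, and lay between them in FDR. Over the list, an FDR under 1% was held by 226 peaks (51.5%), the GL3 and EGL3 peaks among them.

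**Figure D3:**
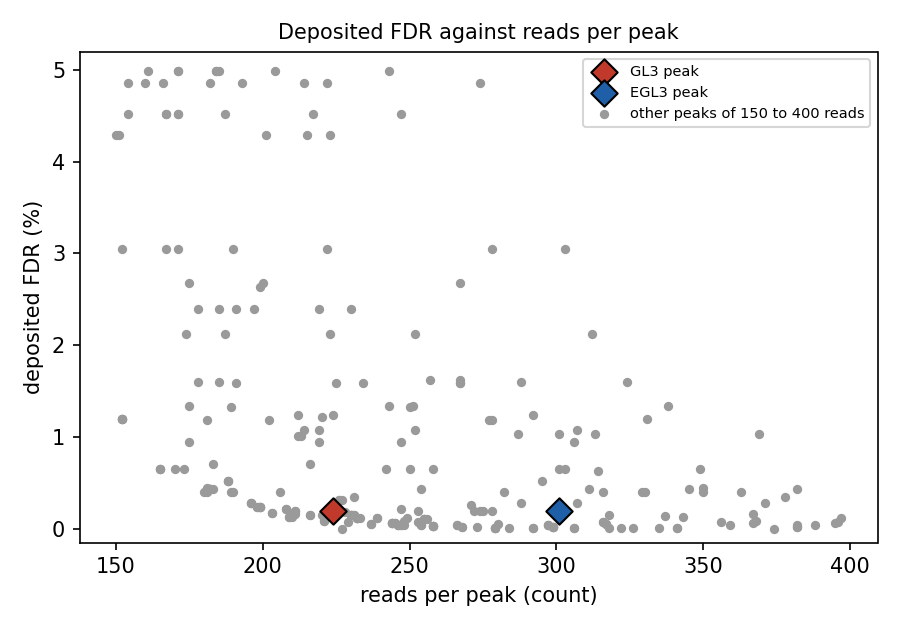
Deposited FDR (%) against reads per peak (count) for the GL3 peak, the EGL3 peak and the other peaks of 150 to 400 reads. The GL3 peak, at 0.196%, and the EGL3 peak, at 0.194%, lie in the low band of points, with other peaks of similar read totals both below and above each of them.

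The nearest listed peaks on either side of GL3 were 145203 bp before it, with 120 reads and no named gene, and 136940 bp after it, on AT5G41685, with 412 reads. Those around EGL3 were 117205 bp before it, on AT1G63300, with 244 reads, and 84695 bp after it, on AT1G63830, with 316 reads. All 4 gaps lay within the middle range of the 434 gaps between successive peaks of a chromosome, which had a median of 167726 bp and quartiles at 58842 and 374108 bp. The GL3 peak had fewer reads than its following neighbour and more than the preceding one, and so had the EGL3 peak.

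Overlap was given for GL3 alone and for EGL3 alone, with no other gene named at either peak. In the neighbour columns, the GL3 peak had the chloroplast protease gene EGY1 (AT5G35220) at 3044940 bp and AT5G49780 at 3696692 bp. The EGL3 peak had AT1G61790 at 786354 bp and ATTAP1 (AT1G70610), a transporter gene, at 3019704 bp. These are not the genes next to the pair: EGY1 was listed as the 5′ neighbour of 21 peaks and AT1G61790 of 10.

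In the gene order of the RefSeq table, GL3 is followed by AT5G41320 and preceded by the long noncoding RNA gene AT5G06145, beyond which lies AT5G41310. EGL3 stands between AT1G63640 and AT1G63660. Further along from EGL3 come TRM12, MURE, SPPL2 and YDA, the last a kinase gene that acts in stomatal patterning. None of the 10 genes around GL3 (5 on each side, 8 of the 10 protein-coding) and none of the 10 around EGL3 was overlapped by a peak. The share over all nuclear protein-coding genes was 1.05% (288 of 27444), so a count of 0 was near the background. The nearest other peaks were at least 84695 bp away, so this count adds little to those distances. Whether the peaks lie in exons, introns or untranslated regions is not stated in the list, and coordinates of the later assembly were not set against them.

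The other genes of the same pathway were not named at any peak. A list of 31 genes of trichome and root-hair patterning held GL3 and EGL3 and no further overlapped member, 0 of 29 (exact 95% upper limit 11.9%). At the genome-wide 1.05%, 0.304 were expected among 29. A count of 0 was therefore near the background. Since GL3 and EGL3 were chosen for being overlapped, their own presence in the list is no result about it.

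By role, the overlapped pair made up 2 of the 4 bHLH activators, the others being TT8 (AT4G09820), which acts in seed coat pigmentation, and MYC1 (AT4G00480). Overlap was found for 0 of 4 R2R3-MYB activators (GL1, MYB23, WER and MYB5), for 0 of 7 R3-MYB inhibitors including TRY and CPC, and not for the WD40 partner TTG1. It was likewise 0 of 4 targets (GL2, TTG2, SIM and RHD6) and 0 of 9 upstream regulators, among them the zinc finger genes GIS, GIS2 and ZFP8 and the ubiquitin ligase gene UPL3. The MIXTA-type MYB genes MYB106 and MYB16 had 0 of 2.

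Of 18 flavonoid and anthocyanin genes that act with or downstream of such complexes, 0 were overlapped (exact 95% upper limit 18.5%, 0.189 expected). They comprised 5 MYB genes such as PAP1, 5 early pathway genes such as CHS and 8 late ones such as DFR and LDOX. Among 31 genes whose symbol or synonym contains bHLH, TT8 again included, 0 were overlapped as well (upper limit 11.2%, 0.325 expected). That match leaves out most of the family, GL3 and EGL3 included, because the gene table carries no product text. No member of the 3 lists other than GL3 and EGL3 was added by counting genes within 3000 bp of a peak in the neighbour columns, which raised the share of all nuclear protein-coding genes to 1.33%. Those columns are incomplete, so binding near these genes was not excluded.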

How the data were processed

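Anti-HA chromatin immunoprecipitation and single-read sequencing gave 1 peak list for 2 libraries. Per the submitters' processing notes the build is TAIR 9. The sources used here name no aligner or peak caller and do not say how the wild-type library was used. The authors deposited, per the file headers, reads per peak as a count with its forward and reverse parts, FDR as a percent, strand imbalance as a fraction, and a p-value. Reads are not scaled to depth, and depth is unknown. Listed length was end minus start in all 439 peaks, 0 in 3 of them.

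Annotation text running over 177 continuation lines was joined. Names were looked up in a RefSeq gene table (TAIR10.1), where 352 of 354 loci matched. It gave names, gene lengths and, from its start positions, gene order. Its coordinates were not set against the peaks. The rule for named genes took GL3, EGL3, their flanking peaks, the genes listed at or beside their peaks, the 5 peaks nearest in reads to each, and overlapped list members. Outside this rule, list members without a peak and genes next in order are named as examples, and other peaks were chosen after their values were seen. Members and lists were chosen with earlier results of these data known. Intervals are 95%. The Poisson and Wilson interval formulas and a simple overlap count were checked on simulated data. The code that reads the list and matches names was not. Planned protein comparisons and promoter motif searches were not run, since sequences were not at hand. Python 3.11.15, NumPy 2.4.6, pandas 2.3.3, SciPy 1.17.1 and Matplotlib 3.10.9 were used.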

Additional observations from a re-analysis of the deposited data

How the results depend on the processing

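Both genes kept a peak when the list was limited to an FDR under 1%. Limited to p-values of at most 0.05 it held 1 of the 2, GL3, because the EGL3 peak has a p-value of 0.599. By locus alone 0 matched, because the list gives the symbols. The share of peaks with fewer reads was 53.5% for GL3 and ran from 53.5% to 56.4% over its alternatives. For EGL3 it was 78.6% and reached 82.1% among peaks on protein-coding genes, but by reads per bp it was 0.683%, since that measure divides by its length of 472 bp. The counts of overlapped genes in the 3 lists were the same with neighbours within 1000 or 3000 bp and with an FDR under 1%. The FDR limit could not change them, since it only removes peaks and the GL3 and EGL3 peaks were known to pass it. The windows rest on incomplete neighbour columns, where 316 of the 439 peaks listed a neighbour more than 20000 bp away. The window alternative for promoter motifs was not run, for want of sequences. No paired analysis was possible because there was a single library (n = 1) per genotype. The unknown depth, the single list and the lack of replicates limit what the 2 peaks can show.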

Other observations

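The entry of the GL3 peak carries the words ChIP peak in its overlap column, as do 417 of the 439 entries, and that of the EGL3 peak is among the 22 that do not. The sources used here do not say what these words record. Of the 22, 14 overlap a protein-coding gene, against 277 of the 417, which is a similar share. A p-value above 0.05 is held by 7 of the 22, against 17 of the 417.

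The FDR of the GL3 peak, 0.196%, was also listed for peaks with far more reads, those on AT2G07784 (472 reads over 619 bp) and AT2G07981 (499 reads over 2 bp). The FDR of the EGL3 peak, 0.194%, was likewise listed for peaks of 211 reads, among them one on ADS1 (AT4G29140), and for a peak of 417 reads on AT5G30189. All of them were chosen with their values in view.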
